A study of Homo sapiens with 20 samples.

Results

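Jurkat, a WT line of human leukemic T cells, was examined at 3 h for transcripts that stood apart from both earlier and later cells. The time point is held by 3 libraries, 1 for each treatment, and was compared with the libraries of the same treatments at 1 h and 6 h, which makes 9 of the 20 libraries of the study. The treatments are labelled CD3_CD28 (plates coated with anti-CD3 and anti-CD28), CD3_CD28_TSP1 (the same coat with thrombospondin-1, TSP1, added) and TSP1 (TSP1 without antibodies), and are written with plus signs here, with TSP1 alone for the last. The dose of TSP1 was 1 μg/ml and that of anti-CD28 on the plate 4 μg/ml, whereas anti-CD3 is given as 2 μg/ml in the study's methods and as 2 mg/ml in the sample labels. All cells were plated in HITES, a serum-free medium supplemented with hormones including hydrocortisone, which was therefore shared by every group. The 9 libraries of the same treatments and times from JinB8, a CD47-deficient somatic mutant of Jurkat that is a single line, served for comparison. The untreated libraries were made at 1 h only and were used only in an alternative fit of all 20 libraries. Time since plating and time under treatment therefore cannot be told apart. Each condition was sequenced once, and the 3 treatments therefore stand in as the replicates of a time point. Nothing in the labels says that time points were handled as separate cultures or on separate days, and a handling batch of a time point cannot be told apart from the time itself. The study's methods name a batch correction without saying what the batch was.

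When the T cell receptor and CD28 are bound together, calcium, ERK, NF-kB and AP-1 signals switch on a first wave of transcription factor genes within the first hour, and the products of that wave act on genes for cytokines, receptors and feedback inhibitors afterwards. Many of the second-wave transcripts are made for a short time only and then decay, so their level passes through a maximum. Among the receptors on T cells is CD47, which binds TSP1, a glycoprotein released by cells and known for limiting T cell receptor signaling. Jurkat cells also divide continuously, which brings transcripts of the cell cycle into the same samples.

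For every gene the log2 level at 3 h was compared with the mean of the log2 levels at 1 h and 6 h, and this difference is called curvature. Curvature is 0 for a gene whose 3 h level lies midway between 1 h and 6 h on the log2 scale. Since 3 h is nearer to 1 h in hours and nearer to 6 h in log hours, an even drift need not give 0, and straight lines in both were used as alternatives. They called 2153 genes higher and 2222 lower in hours and 2313 and 2468 in log hours. A peak was called where curvature, 3 h against 1 h and 3 h against 6 h were all above 0 with an adjusted p under 0.05 in the edgeR quasi-likelihood test, and a dip where all of them were below 0. Levels are in CPM, counts scaled to the library total after TMM adjustment, and are therefore relative to all RNA of the library, so fewer cells of a kind and less RNA per cell cannot be told apart. Values for a gene are listed with CD3+CD28 first, then CD3+CD28+TSP1, then TSP1 alone, and a mean ± SD is over these n = 3 libraries, so that its SD includes the effect of treatment. Gene positions are those of GRCh38 in GENCODE version 44.

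The Jurkat libraries held 22206501 to 31737616 counts, and 3 counts, taken as the limit of detection, correspond to 0.0976 to 0.144 CPM. Of 60719 genes, 18263 passed the low-count filter. The T cell genes CD3D (7602 to 11285 counts) and LCK (12056 to 18414 counts) were high in every Jurkat library, whereas PAX5 of B cells had at most 5 counts and LYZ of myeloid cells at most 7. Of the B cell list, 3 of 7 genes were tested, CD79A was present at 848 to 1533 counts, and BLK was a dip. Among the JinB8 libraries the one given CD3+CD28+TSP1 for 3 h stood apart, with 16107921 counts and a TMM factor of 1.21 where the others had 0.98 to 1.07. List counts that moved by over 1.5 times and more than 1 gene without it are given both ways. CD47 itself, on chr3:108043091-108091862, was at 250 to 371 CPM in the 9 Jurkat libraries and at 123 to 165 CPM in the 9 JinB8 libraries, and the ranges did not overlap.

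The 3 h libraries did not lie on a line between 1 h and 6 h. In principal components of log2 CPM, the first component (37.0% of variance) followed time, from −52.0 to −36.8 at 1 h through −15.3 to −3.84 at 3 h to 53.6 to 59.3 at 6 h. The second component (20.7%) set 3 h apart, with −55.4, −44.0 and −27.3 at 3 h against 21.4 to 37.8 at 1 h and 9.27 to 18.8 at 6 h. The library given TSP1 alone was the least displaced of the 3 h libraries on the second component.

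**Figure D1:**
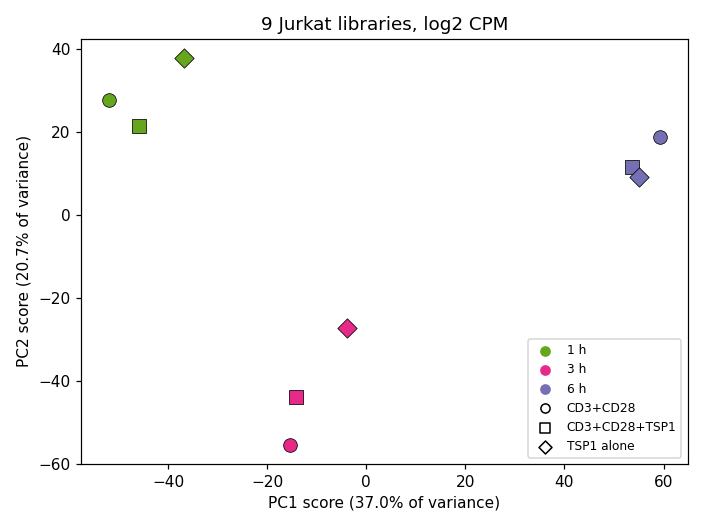
Principal components of log2 CPM in the 9 Jurkat libraries, 1 library per point, with the first component (37.0% of variance) on the x axis and the second (20.7%) on the y axis. The 3 libraries at 3 h sit below 0 on the second component, while all libraries at 1 h and 6 h sit above 0.

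Curvature was called for 4508 genes (24.7% of those tested, and 36.2% at an unadjusted p under 0.05), of which 2193 (12%) were higher and 2315 (12.7%) lower at 3 h than the mean of the other times. Which direction held more genes turned with the scaling, since upper-quartile factors gave 2648 higher and 2004 lower with 884 peaks and 649 dips, and voom with quantile normalization gave 2539 and 2114 with 874 and 724. In 1876 of the 2193 and in 1840 of the 2315 genes, the fitted 3 h level lay beyond both 1 h and 6 h. With both single comparisons required to pass as well, 709 genes were peaks (3.88%) and 758 were dips (4.15%). The remaining genes with called curvature included 131 and 180 whose 3 h level lay between the other times with most of the change made before 3 h, and 186 and 295 with most of it made afterwards. Peaks were the larger departures, and 3 h against 1 h alone was called for 30.2% of genes tested. Their median curvature was 0.69 (1.62-fold), 229 of 709 (32.3%) exceeded 1 on the log2 scale, and the 90th percentile was 1.83, whereas dips had a median of −0.53 (1.44-fold), 73 of 758 (9.63%) beyond 1, and a 90th percentile of −0.99. Peaks and dips were called with the treatments as replicates, so likeness between treatments is part of the call. As a description, 694 of the 709 peaks were above both other times in 3 of 3 treatments and 750 of the 758 dips were below both in 3 of 3. For comparison, all 3 treatments put the 3 h value above both others in 11.6% of all genes tested and below both in 10.7%. Between 1 h and 6 h, 121 peaks were called higher and 93 lower at 6 h, and among dips these numbers were 132 and 143. Over all genes tested, 45.6% were called in this comparison (23.4% higher and 22.2% lower). The counts rest on single libraries. Without the Jurkat 3 h library given CD3+CD28 there were 419 peaks and 490 dips, with 1269 genes called higher and 1371 lower for curvature, and without the one given CD3+CD28+TSP1 the called genes were 1325 and 1443. Without the JinB8 library that stood apart, which enters the shared estimate of the spread, there were 991 peaks and 1167 dips.

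Promoter sequence was available for 500 of the 709 peaks and 604 of the 758 dips (RefSeq, GRCh38.p14, 250 bases before to 50 after the start, the first listed promoter of a gene). Short motifs were searched on both strands, without mismatch. The TATA box letters TATAAA stood in 11.6% of peak promoters, 3.48% of dip promoters and 6.19% of the 11352 promoters of all tested genes. The AP-1 letters TGACTCA stood in 4.8%, 2.48% and 2.93%, and the E box letters CACGTG in 7.60%, 12.9% and 9.91%. Shares were closer together for the cyclic AMP response element TGACGTCA (3.40%, 3.31% and 3.21%), for the EGR letters GCGTGGGCG (1.20%, 1.49% and 1.28%) and for the SP1/KLF letters GGGCGG (66.2%, 70.4% and 67.7%), a motif that can overlap an EGR match. An NF-kB consensus stood in 0.4% of peak promoters, in 0 dip promoters and in 0.211% of all, and a serum response element in 0.2%, 0 and 0.044%. The peaks include 34 histone genes, among them H2BC3 with TATAAA, and the TATA box share without them was not computed. All these shares describe letters in a window and were not tested. The following promoters belong to genes described next and are printed to show such matches among peaks and in a dip, with matched motifs in capitals. SHC4, HRH1 and LUCAT1 hold AP-1 letters with their first base at −81, −71 and −52 from the start, VGF holds a cyclic AMP response element at −79 besides an E box, a TATA box on the opposite strand and SP1/KLF letters, the histone gene H2BC3 holds TATAAA at −30 and on the opposite strand at −214, and HERPUD1, a dip, holds an E box at −159, TATAAA at −29 and SP1/KLF letters.
SHC4, chr15:48963870-48964169, minus strand: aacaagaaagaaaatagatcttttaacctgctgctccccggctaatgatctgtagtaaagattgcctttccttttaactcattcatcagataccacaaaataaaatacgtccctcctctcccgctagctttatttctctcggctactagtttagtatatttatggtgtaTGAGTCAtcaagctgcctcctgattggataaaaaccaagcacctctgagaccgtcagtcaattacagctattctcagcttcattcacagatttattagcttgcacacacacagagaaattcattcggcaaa
HRH1, chr3:11136988-11137287, plus strand: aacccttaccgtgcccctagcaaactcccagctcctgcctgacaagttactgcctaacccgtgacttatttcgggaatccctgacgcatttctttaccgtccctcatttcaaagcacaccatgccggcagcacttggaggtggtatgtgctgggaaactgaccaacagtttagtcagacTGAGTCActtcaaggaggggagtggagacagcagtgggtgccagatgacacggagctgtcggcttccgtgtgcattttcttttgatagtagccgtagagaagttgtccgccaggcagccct
LUCAT1, chr5:91314353-91314652, minus strand: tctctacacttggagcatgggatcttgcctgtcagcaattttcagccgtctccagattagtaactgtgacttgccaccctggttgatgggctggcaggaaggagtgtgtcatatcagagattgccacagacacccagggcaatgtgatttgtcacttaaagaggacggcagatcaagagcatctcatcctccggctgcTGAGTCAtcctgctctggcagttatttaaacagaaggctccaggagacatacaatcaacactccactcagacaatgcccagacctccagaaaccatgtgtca
VGF, chr7:101165520-101165819, minus strand: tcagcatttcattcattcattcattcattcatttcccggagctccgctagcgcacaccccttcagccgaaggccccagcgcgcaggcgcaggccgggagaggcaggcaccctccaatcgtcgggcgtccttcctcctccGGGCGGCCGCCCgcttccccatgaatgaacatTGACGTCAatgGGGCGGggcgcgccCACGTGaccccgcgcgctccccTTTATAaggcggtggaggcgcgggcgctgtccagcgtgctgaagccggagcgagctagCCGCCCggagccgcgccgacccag
H2BC3, chr6:26043664-26043963, minus strand: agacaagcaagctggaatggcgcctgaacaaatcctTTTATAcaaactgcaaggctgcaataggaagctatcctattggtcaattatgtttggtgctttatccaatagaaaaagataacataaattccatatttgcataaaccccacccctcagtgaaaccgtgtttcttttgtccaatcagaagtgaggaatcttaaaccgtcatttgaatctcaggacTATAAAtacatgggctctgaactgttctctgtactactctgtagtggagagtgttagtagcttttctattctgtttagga
HERPUD1, chr16:56931892-56932191, plus strand: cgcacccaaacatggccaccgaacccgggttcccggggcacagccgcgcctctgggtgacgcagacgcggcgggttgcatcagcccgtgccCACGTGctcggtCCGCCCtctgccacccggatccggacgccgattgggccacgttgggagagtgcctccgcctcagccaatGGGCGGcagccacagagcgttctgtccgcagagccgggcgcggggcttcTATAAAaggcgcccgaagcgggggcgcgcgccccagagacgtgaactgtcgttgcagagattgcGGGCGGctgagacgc

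Coding peaks with a large curvature are described first, most of them chosen by their curvature at a mean log2 CPM of 1 or more from genes whose 3 h value lay above both other times in each treatment. HRH1, at a mean log2 CPM of 0.76, was named for its difference between the lines. PHLDB1, a protein with a pleckstrin homology domain (chr11:118606440-118658031), was at 3.89, 3.42 and 2.01 CPM at 1 h, at 19.4, 17.8 and 5.42 CPM at 3 h and at 1.23, 1.56 and 1.08 CPM at 6 h. Its curvature was 2.72 (SE 0.236, edgeR adjusted p = 3.79e-06), a 6.57-fold departure. Every 3 h library was above every library of the other times, and the antibody-treated cells had the higher values. SHC4, an adaptor of the SHC family that links receptor tyrosine kinases to RAS (chr15:48823741-48963919), went from 2.83, 2.59 and 1.17 CPM at 1 h to 23.9, 22.5 and 7.01 CPM at 3 h and to 4.43, 6.45 and 3.91 CPM at 6 h. The curvature of SHC4 was 2.33 (SE 0.191, edgeR adjusted p = 2.41e-06), and its 6 h level stayed above that of 1 h by 1.24 on the log2 scale (edgeR adjusted p = 0.00112). HRH1, the histamine H1 receptor (chr3:11137093-11263557), was at 1.10, 1.14 and 0.586 CPM at 1 h, 7.16, 6.77 and 4.3 CPM at 3 h and 1.2, 0.749 and 0.598 CPM at 6 h (curvature 2.78, SE 0.146, edgeR adjusted p = 8.12e-08). For SHC4 and HRH1 alike the 3 h values did not overlap those of either other time.

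IL21R, the receptor for interleukin-21 (chr16:27402174-27452042), was at 2.45, 3.51 and 3.14 CPM at 1 h, at 15.5, 15.1 and 6.32 CPM at 3 h and at 2.37, 5.01 and 1.83 CPM at 6 h, with a curvature of 1.97 (SE 0.209, edgeR adjusted p = 1.90e-05). NRP1, a co-receptor for semaphorins and vascular endothelial growth factor that also marks some T cells (chr10:33177492-33336262), rose from 1.36 ± 0.343 CPM at 1 h to 6.16 ± 2.16 CPM at 3 h and was at 2.01 ± 0.547 CPM at 6 h (curvature 1.86, SE 0.178, edgeR adjusted p = 8.90e-06). DDR2, a collagen receptor tyrosine kinase (chr1:162631373-162787405), was at 1.23 ± 0.464, 6.28 ± 0.715 and 2.35 ± 0.597 CPM at the 3 times (curvature 1.90, SE 0.185, edgeR adjusted p = 9.76e-06). In these receptor genes no library at 1 h or 6 h reached the lowest 3 h value. ANTXR2, which binds extracellular matrix proteins and the anthrax toxin, and COL6A3, a chain of collagen VI, differed in that part of the rise remained. ANTXR2 (chr4:79901146-80125454) was at 1.22 ± 0.200, 9.71 ± 2.53 and 4.66 ± 0.836 CPM, and 6 h exceeded 1 h by 1.93 on the log2 scale (edgeR adjusted p = 6.54e-06). COL6A3 (chr2:237324003-237414328) was at 2.47 ± 1.17, 13.8 ± 5.78 and 5.81 ± 1.76 CPM, with 6 h above 1 h by 1.32 (edgeR adjusted p = 0.00167). PGBD5, a gene derived from a piggyBac transposase (chr1:230314490-230426332), was a further leading peak, with 3.50, 3.68 and 4.48 CPM at 1 h, 21.4, 20.8 and 14.1 CPM at 3 h and 4.73, 5.31 and 4.82 CPM at 6 h (curvature 2.08, SE 0.132, edgeR adjusted p = 2.73e-07).

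The granin genes SCG2 and VGF were also peaks. SCG2, secretogranin II of the regulated secretory pathway (chr2:223596940-223602361), was at 13.2, 9.99 and 4.52 CPM at 1 h, at 69.8, 70.1 and 16.9 CPM at 3 h and at 9.77, 16.3 and 5.14 CPM at 6 h, with a curvature of 2.31 (SE 0.165, edgeR adjusted p = 6.80e-07). VGF, a granin-like neuropeptide precursor whose promoter is printed above (chr7:101162509-101165569), was at 1.92, 3.77 and 1.3 CPM at 1 h, at 21.8, 12.4 and 4.08 CPM at 3 h and at 1.01, 3.74 and 1.16 CPM at 6 h (curvature 2.52, SE 0.306, edgeR adjusted p = 5.45e-05). Within each treatment 3 h was the highest time for both genes, and the 3 h values of cells given TSP1 alone were the lowest of their time. PHLDA1, a pleckstrin homology protein induced by ERK signaling (chr12:76025447-76031776), was at 19.7, 21.1 and 10.9 CPM, then at 80.4, 65.6 and 24.0 CPM, and at 6 h at 7.58, 11.7 and 7.41 CPM (curvature 2.10, SE 0.182, edgeR adjusted p = 3.79e-06). SPRED1, an inhibitor of RAS and RAF signaling (chr15:38252836-38357249), was at 36.4 ± 2.35, 67.8 ± 6.58 and 48.8 ± 3.37 CPM (curvature 0.69, SE 0.0774, edgeR adjusted p = 3.21e-05). Of the 13 genes listed as ERK feedback genes, 6 were called higher and 1 lower for curvature, PHLDA1 and SPRED1 were the 2 peaks, and the median curvature was 0.47 beside 0.00155 over all genes. That median was 0.18 with 4 called higher without the Jurkat 3 h library given CD3+CD28, 0.30 without the 6 h library given CD3+CD28, 0.73 without the 3 h library given TSP1 alone, 0.74 with activated treatments only and 0.27 against a straight line in hours. The long noncoding RNA LUCAT1 (chr5:91054834-91314547) also peaked, at 23.6, 22.3 and 11.4 CPM, then 51.3, 46.8 and 26.9 CPM, then 8.37, 10.4 and 11.6 CPM (curvature 1.55, SE 0.168, edgeR adjusted p = 2.30e-05).

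**Figure D2:**
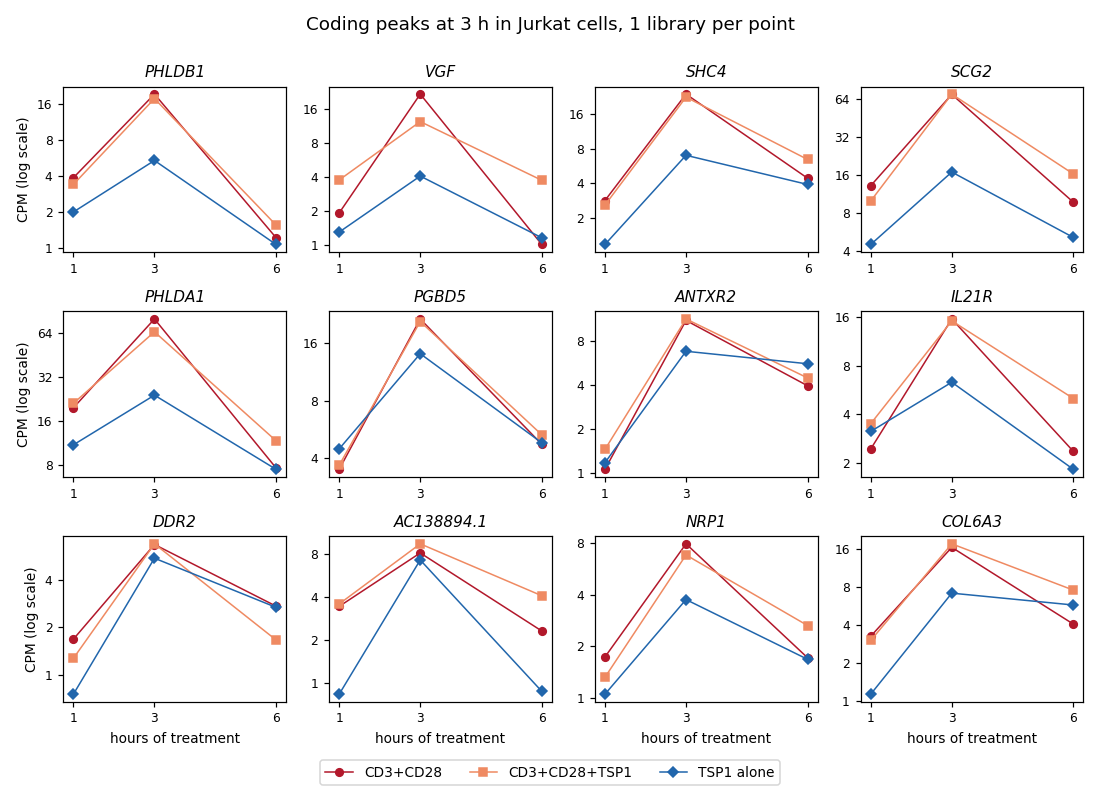
Level in CPM (log scale) against hours of treatment for the 12 coding peaks with the largest curvature at a mean log2 CPM of 1 or more, taken only from genes whose 3 h value is the highest in each of the 3 treatments, with each line joining the libraries of 1 treatment. For SCG2 the antibody-treated libraries reach 69.8 and 70.1 CPM while TSP1 alone reaches 16.9 CPM.

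Some genes of T cell activation peaked at 3 h. Of 27 listed cytokine and surface marker genes, 19 were tested, 10 were called higher and 1 lower for curvature, 4 were peaks (IL2RA, PDCD1, SCG2 and TNFSF14) and the median curvature was 0.69. Without the Jurkat 3 h library given CD3+CD28+TSP1, 6 were called higher. PDCD1, which encodes the inhibitory receptor PD-1 (chr2:241849884-241858894), was at 6.19, 10.3 and 5.65 CPM at 1 h, at 30.1, 23.1 and 7.52 CPM at 3 h and at 3.37, 5.50 and 2.99 CPM at 6 h, with a curvature of 1.80 (SE 0.246, edgeR adjusted p = 1.32e-04). The antibody-treated cells at 3 h were above all other libraries, while the 3 h cells given TSP1 alone, at 7.52 CPM, lay within the range of 1 h. The following 4 genes are low in these libraries and were chosen after their values were seen. FASLG, the death ligand of activated T cells (chr1:172659103-172666876), was at 0.432, 0.307 and 0.209 CPM at 1 h, at 2.64, 3.68 and 0.516 CPM at 3 h and at 0.175 and 0.130 CPM at 6 h, with 0 counts in the library given TSP1 alone, which allows up to 0.119 CPM (curvature 3.52, SE 0.431, edgeR adjusted p = 5.72e-05). IL2RA, the inducible chain of the interleukin-2 receptor (chr10:6010689-6062370), was at 1.20, 0.789 and 0.293 CPM, then at 6.84, 5.04 and 0.430 CPM, and at 6 h at 0.131 and 0.912 CPM and, with TSP1 alone, below the limit of 0.119 CPM (curvature 2.73, SE 0.475, edgeR adjusted p = 8.70e-04). In FASLG every 3 h library exceeded the others, whereas IL2RA after TSP1 alone stayed below the values of antibody-treated cells at 1 h. GPR183, an oxysterol receptor that guides lymphocyte migration (chr13:99294539-99307399), was at 0.352 ± 0.185, 2.30 ± 0.921 and 0.137 ± 0.0425 CPM, the last with 1 library under its limit of 3 counts (curvature 3.30, SE 0.382, edgeR adjusted p = 3.85e-05). CRTAM, an adhesion receptor of activated T cells (chr11:122838500-122872643), was at 0.650 ± 0.120, 2.37 ± 1.46 and 0.321 ± 0.129 CPM (curvature 2.22, SE 0.467, edgeR adjusted p = 0.00322), and its call was lost without the 3 h library given CD3+CD28 (curvature 1.84, edgeR adjusted p = 0.0546).

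Genes of the first wave mostly fell from 1 h to 6 h. Of 30 listed immediate early genes, 29 were tested, and 28 were lower at 6 h than at 1 h (22.2% of all genes were). None was a peak, beside 3.88% of all genes, a share too small to set this list apart. For curvature 7 were called higher and 4 lower, beside 12% and 12.7% of all genes, and the median curvature was −0.04. Without either antibody-treated library at 3 h, 3 rather than 7 were called higher, and without the 3 h library given TSP1 alone 2 rather than 4 were called lower. The counts were 3 higher and 6 lower against a straight line in hours and 9 and 2 in log hours, where the median turned to 0.24. With activated treatments only they were 9 and 2 with a median of 0.14. Leaving out 1 Jurkat library gave medians from −0.14 to 0.15. BTG2, an antiproliferative gene that recruits the deadenylation machinery to mRNA (chr1:203305491-203309602), was the only dip among them, at 25.9 ± 1.43 CPM at 1 h, 12.9 ± 0.116 CPM at 3 h and 17 ± 0.750 CPM at 6 h (curvature −0.71, SE 0.0834, edgeR adjusted p = 4.36e-05). NF-kB genes were mixed, with 4 of 19 called higher and 5 lower, 3 and 3 without the Jurkat 3 h library given TSP1 alone, and 3 and 1 with activated treatments only. TRAF1, an adaptor of tumor necrosis factor receptors (chr9:120902393-120929173), was at 12.5, 12 and 6.74 CPM, then 33.3, 33.2 and 9.72 CPM, then 7.32, 10.4 and 6.54 CPM (curvature 1.35, SE 0.168, edgeR adjusted p = 6.14e-05). RELB, a subunit of NF-kB (chr19:45001461-45038192), was at 3.93 ± 1.01, 7.48 ± 1.5 and 3.26 ± 0.145 CPM (curvature 1.06, SE 0.157, edgeR adjusted p = 2.63e-04). NFKB1, which encodes the p50 subunit, was the dip of this list. NFKBIZ, a nuclear regulator of NF-kB that was added after its values were seen, was the remaining peak (curvature 0.64, edgeR adjusted p = 0.015), and its call was lost under 7 alternatives, among them leaving out any 1 of the Jurkat 3 h libraries (edgeR adjusted p = 0.0508 to 0.0876).

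Amino acid transporters were among the peaks with high counts. SLC7A11, the cystine and glutamate exchanger (chr4:138164097-138242349), was at 69.1, 59.4 and 70.8 CPM at 1 h, at 104, 89.1 and 82.3 CPM at 3 h and at 22.3, 20.9 and 22.8 CPM at 6 h (curvature 1.26, SE 0.0722, edgeR adjusted p = 1.35e-07). SLC7A5, the transporter of large neutral amino acids (chr16:87830023-87869507), was at 196, 262 and 200 CPM, then 448, 412 and 301 CPM, then 192, 220 and 189 CPM (curvature 0.88, SE 0.0927, edgeR adjusted p = 1.85e-05). SLC7A5 at 6 h overlapped its 1 h values, whereas SLC7A11 fell by 1.59 on the log2 scale from 1 h to 6 h (edgeR adjusted p = 9.50e-09). Of 25 tested genes of the ATF4 and amino acid stress list, 7 were called higher and 4 lower, with a median of 0.10 that turned to −0.01 against a straight line in hours and was 0.22 in log hours, with 11 called higher and 3 lower. With activated treatments only, 4 were called higher and 0 lower. Without either antibody-treated 3 h library 2 were called lower.

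The replication-dependent histone genes were the list with the most peaks. These genes encode the histones deposited during DNA replication, and their mRNAs end in a conserved stem-loop instead of a poly(A) tail. Of 55 listed genes, 53 were tested, all 53 had a curvature above 0, 47 were called higher and none lower, 34 were peaks, and the median curvature was 0.61. Without the Jurkat 3 h library given CD3+CD28, 26 were called higher. Histone counts made up 0.989% to 1.85% of a Jurkat library at 1 h and 6 h and 2.08% to 2.62% at 3 h, without overlap. H2BC14, a histone H2B gene (chr6:27815022-27815489), was at 40.8, 45.8 and 39.7 CPM at 1 h, at 126, 134 and 127 CPM at 3 h and at 86.1, 86.9 and 84.1 CPM at 6 h (curvature 1.10, SE 0.0992, edgeR adjusted p = 5.08e-06). H2BC3 (chr6:26043227-26043713) was at 75.2, 72.8 and 71.4 CPM, then 184, 195 and 201 CPM, then 122, 123 and 135 CPM (curvature 1.01, SE 0.0622, edgeR adjusted p = 2.44e-07), and H2BC8 (chr6:26216200-26216688) was at 20.7 ± 1.06, 60.3 ± 7.30 and 35.4 ± 2.57 CPM (curvature 1.15, SE 0.110, edgeR adjusted p = 8.58e-06). Within a time, the 3 treatments gave similar levels of these 3 histone genes, which were named for their small p. Summed over the list, histone counts at 1 h were 0.989% with CD3+CD28 and 1.48% with each of the other treatments. Genes of the same histone class are alike in sequence, and RSEM divides the reads they share, so single members are uncertain. The exact stem-loop letters stood in the 3′ untranslated region of all 51 listed histone genes with an annotated one, in 33 of 597 peaks (5.53%), all 33 of them histones of the list, in 0 of 716 dips and in 72 of 13382 tested genes (0.538%). The sequence is printed because it marks this class of mRNA, with capitals for the whole stem-loop. It begins 48 bases after the coding end in H2BC14 and 33 bases after it in H2BC3 and H2BC8.
H2BC14, chr6:27815469-27815484, plus strand: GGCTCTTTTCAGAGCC
H2BC3, chr6:26043232-26043247, minus strand: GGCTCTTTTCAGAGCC
H2BC8, chr6:26216218-26216233, minus strand: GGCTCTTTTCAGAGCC
The libraries were made with an mRNA kit, and the way histone mRNAs entered them was not tested. The noncoding RNAs RN7SL1 or RN7SL2 were the top gene of every Jurkat library, with 4.40% to 6.81% of counts. RNAs counted as nuclear made up 13.6% and 13.9% of counts with TSP1 alone at 1 h and 3 h. In the other Jurkat libraries they made up 16.4% to 19.1%, and their part in the 3 h levels was not tested. Other cell cycle lists had fewer calls. DNA replication genes had 7 called higher and 7 lower of 35 with GINS4, a subunit of the replicative helicase, as the 1 peak. Mitosis genes had 0 called higher and 7 lower of 35 by edgeR in the main fit. Replication genes had 3 called higher and 2 lower without the Jurkat 3 h library given CD3+CD28+TSP1, 5 and 3 without the one given CD3+CD28 and 4 and 6 without the one given TSP1 alone. Mitosis genes had 1 called higher and 16 lower without the JinB8 library that stood apart. Of the mitosis genes, 1 was also called higher by voom with quantile normalization. So it was with upper-quartile factors, with 1 CPM in every library, with Jurkat libraries alone and without the Jurkat 1 h library given CD3+CD28.

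The dips with the largest curvature, chosen by the same rule in the other direction, included a gene of glucose use. HK2, hexokinase 2 of the first step of glycolysis (chr2:74834127-74893359), was at 60.2, 58.9 and 59.5 CPM at 1 h, at 14.1, 15.6 and 17.1 CPM at 3 h and at 41.1, 41.2 and 40.1 CPM at 6 h. Its curvature was −1.66 (SE 0.0734, edgeR adjusted p = 3.11e-08), which is 0.316 of the mean of the other times. SLC2A1, the glucose transporter GLUT1 (chr1:42925353-42958893), was at 61, 62.5 and 51.6 CPM, then 22.6, 19.9 and 20.9 CPM, then 42.6, 40.9 and 44.2 CPM (curvature −1.24, SE 0.0760, edgeR adjusted p = 2.44e-07). For both genes the 3 treatments gave almost the same values and the times did not overlap. HK2 and SLC2A1 were the 2 dips among 27 genes of glycolysis and glucose uptake, of which 8 were called lower and 1 higher, with a median of −0.14. This count was 4 lower without the Jurkat 3 h library given CD3+CD28, 5 without the one given TSP1 alone and 13 without the JinB8 library that stood apart.

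RASGRP1, which activates RAS below the T cell receptor (chr15:38488103-38565575), was at 130, 122 and 128 CPM at 1 h, at 31.9, 33.2 and 44.3 CPM at 3 h and at 96.2, 81.8 and 94.3 CPM at 6 h (curvature −1.56, SE 0.0839, edgeR adjusted p = 8.99e-08). SELPLG, the P-selectin ligand of leukocytes (chr12:108621895-108633894), was at 32.7, 38.0 and 38.3 CPM, then 12.4, 11.9 and 19 CPM, then 54.9, 48.4 and 56.4 CPM (curvature −1.63, SE 0.108, edgeR adjusted p = 4.25e-07). RORA, a nuclear receptor of the circadian clock (chr15:60488284-61229302), was at 74.7, 75.7 and 77.7 CPM at 1 h, at 15.8, 14.1 and 18.4 CPM at 3 h and at 23.4, 24.3 and 26.3 CPM at 6 h (curvature −1.43, SE 0.0807, edgeR adjusted p = 1.21e-07). In all of them the 3 h libraries were below every other library, but the return differed. SELPLG at 6 h exceeded its 1 h level by 0.55 on the log2 scale (edgeR adjusted p = 9.92e-04), RASGRP1 stayed below it by 0.48 and RORA remained lower, with 6 h against 1 h at −1.62 (edgeR adjusted p = 5.80e-09). ARNTL, the clock activator BMAL1 (chr11:13276652-13387266), was a shallower dip at 33.9 ± 2.14, 21.4 ± 1.36 and 30.7 ± 1.33 CPM (curvature −0.59, SE 0.0673, edgeR adjusted p = 3.38e-05). NR1D1 was the third clock dip, and 6 of 17 tested clock genes were called lower and 2 higher.

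Further dips included genes for an enzyme, a receptor and a noncoding RNA. MOCS1, an enzyme of molybdenum cofactor synthesis (chr6:39899578-39934551), was at 62.1, 62.1 and 68.4 CPM at 1 h, at 16.1, 18.3 and 22.7 CPM at 3 h and at 50, 50.7 and 50.5 CPM at 6 h (curvature −1.59, SE 0.0792, edgeR adjusted p = 5.40e-08). The noncoding RNA DAAM2-AS1 (chr6:39881804-39900071) overlaps MOCS1 on the same strand and was at 9.57 ± 1.28, 3.47 ± 0.641 and 7.92 ± 1.32 CPM (curvature −1.32, SE 0.275, edgeR adjusted p = 0.00303), and reads from the shared stretch cannot be assigned to either gene with certainty. CNR2, the cannabinoid receptor of immune cells (chr1:23870515-23913362), was at 12.4, 11.5 and 13.3 CPM, then 4.43, 5.80 and 9.85 CPM, then 24.1, 23.5 and 24.9 CPM (curvature −1.41, SE 0.148, edgeR adjusted p = 1.81e-05). CNR2 thus ended above its 1 h level, by 0.97 on the log2 scale (edgeR adjusted p = 1.22e-04). JAKMIP1, which binds microtubules and the kinase TYK2 (chr4:6026199-6200591), was at 19.2 ± 2.61, 8.53 ± 1.78 and 28.3 ± 2.74 CPM (curvature −1.45, SE 0.110, edgeR adjusted p = 1.29e-06). TBC1D8, a protein with a Rab GTPase-activating domain (chr2:101007228-101252866), was at 23.7 ± 0.980, 9.07 ± 0.608 and 21.7 ± 1.67 CPM (curvature −1.32, SE 0.0814, edgeR adjusted p = 2.44e-07), with 6 h against 1 h at −0.13 (edgeR adjusted p = 0.235).

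Dips were also found among genes of lipid transport and synthesis. ABCG1, a cholesterol exporter (chr21:42199689-42297244), was at 25.9, 27.1 and 27.4 CPM at 1 h, at 6.08, 6.98 and 9.93 CPM at 3 h and at 15.9, 14.9 and 18 CPM at 6 h (curvature −1.46, SE 0.102, edgeR adjusted p = 6.23e-07). SREBF1, a transcription factor of fatty acid and sterol synthesis (chr17:17810399-17837002), was at 27.4, 43.1 and 40.9 CPM, then 19.1, 15.7 and 25.2 CPM, then 63.0, 63.8 and 59.6 CPM (curvature −1.27, SE 0.145, edgeR adjusted p = 3.56e-05). The values at 3 h were the lowest of either gene. Of 31 tested sterol and fatty acid synthesis genes, 18 were called lower and 1 higher, 12 were dips and the median curvature was −0.30. With the antibody-treated cells alone, 11 were called lower. FDFT1, squalene synthase (chr8:11795573-11839395), was at 310 ± 19.4, 204 ± 7.13 and 285 ± 8.52 CPM (curvature −0.54, SE 0.0665, edgeR adjusted p = 5.87e-05), and LSS, lanosterol synthase (chr21:46188141-46228824), at 87.7 ± 5.80, 65.9 ± 3.10 and 113 ± 7.74 CPM (curvature −0.59, SE 0.0738, edgeR adjusted p = 6.32e-05). INSIG1, which holds the regulators of sterol synthesis in the endoplasmic reticulum, was added after its values were seen. INSIG1 (chr7:155297776-155310235) was at 540 ± 38.3, 415 ± 57.0 and 493 ± 11 CPM (curvature −0.32, SE 0.0800, edgeR adjusted p = 0.00953). Its call was lost without the 3 h library given TSP1 alone (curvature −0.24, edgeR adjusted p = 0.108) and with the antibody-treated cells alone (−0.24, edgeR adjusted p = 0.188).

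Genes of the unfolded protein response, which raise the folding capacity of the endoplasmic reticulum, mostly had their change after 3 h. Over the list the median of 3 h minus 1 h was 0.14 and that of 3 h minus 6 h −1.26. All 17 listed genes had a curvature below 0, 16 were called lower and none higher, the median was −0.72, and 13 were higher and 3 lower at 6 h than at 1 h, where 23.4% of all genes were higher. DNAJB9, HERPUD1 and XBP1 were the 3 dips. The other genes lay between the times, did not differ from 1 h by the test, or, as ERN1, did not differ from 6 h. HERPUD1, a part of the complex that degrades misfolded proteins (chr16:56932142-56944864), was at 199, 186 and 158 CPM at 1 h, at 71.5, 67.1 and 55.6 CPM at 3 h and at 135, 148 and 134 CPM at 6 h (curvature −1.29, SE 0.0712, edgeR adjusted p = 1.04e-07). XBP1, the transcription factor activated by IRE1 (chr22:28794555-28800597), was at 78.3, 74.4 and 74.5 CPM, then 56.0, 62.6 and 49.1 CPM, then 178, 182 and 177 CPM (curvature −1.06, SE 0.0957, edgeR adjusted p = 5.22e-06). HSPA5, the chaperone BiP (chr9:125234853-125241382), was at 186, 180 and 169 CPM at 1 h, at 169, 175 and 122 CPM at 3 h and at 722, 821 and 715 CPM at 6 h, so that its curvature of −1.25 (SE 0.0902, edgeR adjusted p = 7.09e-07) came with 3 h against 1 h at −0.21 (edgeR adjusted p = 0.124) and a later rise. HERPUD1 had its lowest level at 3 h and a partial return, while HSPA5 had its change after 3 h.

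T cell regulators and cell cycle or death genes were also among the dips. BCL11B, a transcription factor of T cell commitment (chr14:99169287-99272197), was at 79.7, 91.7 and 92.4 CPM, then 50.5, 52.1 and 72.5 CPM, then 121, 118 and 129 CPM (curvature −0.84, SE 0.104, edgeR adjusted p = 6.14e-05). LEF1, a partner of beta-catenin in T cell development (chr4:108047545-108168956), was at 505 ± 10.6, 343 ± 26.6 and 465 ± 14.7 CPM (curvature −0.50, SE 0.0660, edgeR adjusted p = 1.03e-04). LAT, the adaptor that couples the T cell receptor to its downstream enzymes (chr16:28984826-28990784), went the other way as a peak at 111 ± 11.7, 215 ± 33.3 and 169 ± 11.8 CPM (curvature 0.64, SE 0.0756, edgeR adjusted p = 4.29e-05). Of 19 T cell identity genes, 4 were called higher and 6 lower, with LAT and TRAC as peaks and BCL11B, LEF1 and ZAP70 as dips, and without the JinB8 library that stood apart 7 were called higher. CCND3, cyclin D3 of the G1 phase (chr6:41934934-42050357), was at 186, 220 and 206 CPM at 1 h, 84.1, 89.4 and 104 CPM at 3 h and 171, 177 and 165 CPM at 6 h (curvature −1.01, SE 0.104, edgeR adjusted p = 1.47e-05). FAS, the death receptor bound by the product of FASLG (chr10:88953813-89029605), was at 27.6, 24.0 and 23.9 CPM, then 12.3, 11.3 and 12.7 CPM, then 16.4, 14.9 and 15.3 CPM (curvature −0.71, SE 0.0885, edgeR adjusted p = 6.49e-05). Receptor and ligand thus moved in opposite directions at 3 h, and neither gene's 3 h values overlapped those of the other times. XPC, a sensor of DNA damage in nucleotide excision repair (chr3:14145147-14178621), was at 28.9 ± 2.33, 18.1 ± 1.11 and 42.9 ± 2.68 CPM (curvature −0.96, SE 0.0742, edgeR adjusted p = 1.48e-06).

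**Figure D3:**
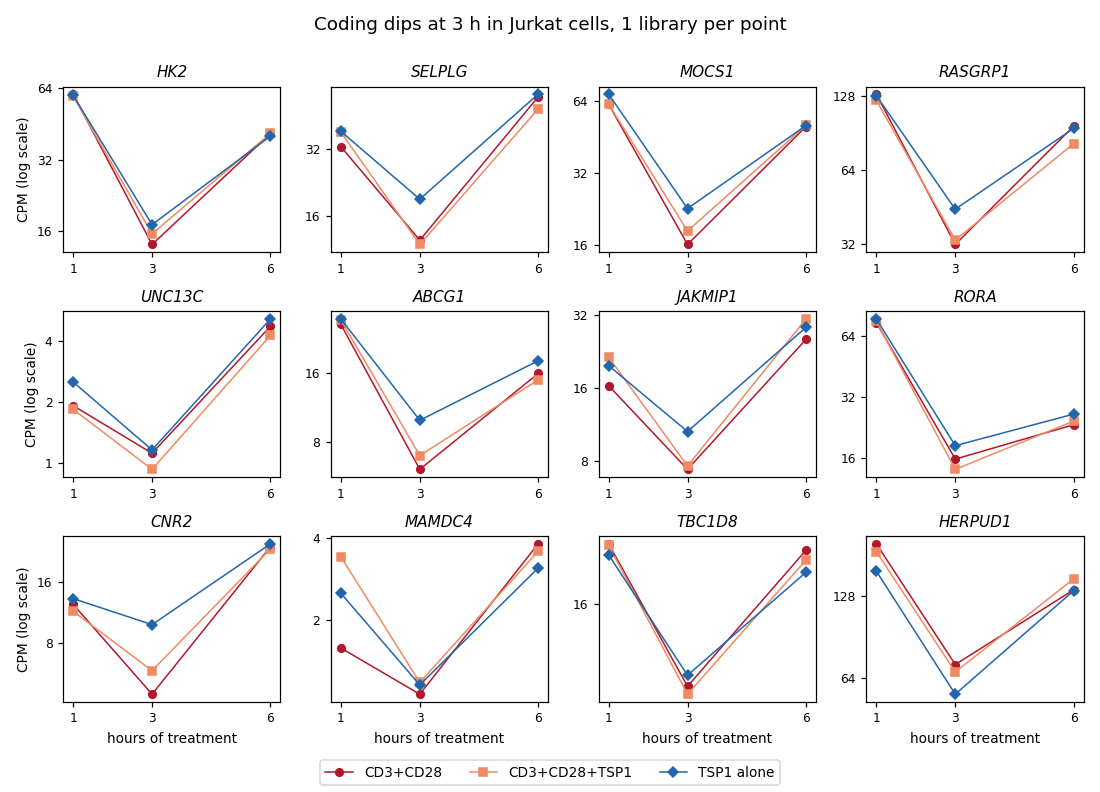
Level in CPM (log scale) against hours of treatment for the 12 coding dips with the largest curvature at a mean log2 CPM of 1 or more, taken only from genes whose 3 h value is the lowest in each of the 3 treatments, with each line joining the libraries of 1 treatment. For HK2 the 3 treatments reach 14.1, 15.6 and 17.1 CPM at 3 h from about the same 1 h level.

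Of the other lists some had calls in mainly 1 direction, beside the background of 12% of genes called higher and 12.7% called lower. Ribosomal protein genes had 0 of 76 called in either direction by edgeR (median −0.08), or 11 lower without the JinB8 library that stood apart. DESeq2 called 2 of them lower and voom with quantile normalization 2 higher. With edgeR, 4 were called lower in a fit of Jurkat libraries alone and 3 without the filter on low counts. Genes encoded by mitochondrial DNA had 0 of 13 called by edgeR, or 1 higher without that JinB8 library or with Jurkat libraries alone. Nuclear genes of oxidative phosphorylation had 3 of 73 called lower and none higher, with 17 called lower without the JinB8 library that stood apart. Ribosome biogenesis genes had 21 of 52 called lower and none higher by edgeR, none of them a dip, and 44 were higher at 6 h than at 1 h. For curvature, 32 were called lower and 1 higher without that JinB8 library, and voom with quantile normalization called 19 lower and 1 higher. Host genes of small nucleolar RNAs had 12 of 25 called lower and 1 higher, with 3 dips. GAS5, one of these hosts (chr1:173858559-173868882), was at 347 ± 35.7, 226 ± 15.8 and 287 ± 13.1 CPM (curvature −0.48, SE 0.0988, edgeR adjusted p = 0.00285), and SNHG15 (chr7:44983019-44986961) was at 110 ± 8.72, 82.4 ± 5.82 and 125 ± 2.19 CPM (curvature −0.51, SE 0.0850, edgeR adjusted p = 6.46e-04). The count of hosts called lower was 5 or 6 without any 1 of the Jurkat 3 h libraries. Interferon-stimulated genes had 8 of 25 called lower and 1 higher, among them STAT2, a factor of interferon signaling (46.3 ± 2.13, 26.5 ± 2.89 and 32.2 ± 1.27 CPM, curvature −0.54, SE 0.0779, edgeR adjusted p = 2.06e-04). HIF1A, the oxygen-regulated transcription factor, was a dip (109 ± 6.38, 56.9 ± 5.53 and 68.6 ± 1.84 CPM, curvature −0.60, SE 0.0613, edgeR adjusted p = 1.37e-05), while EGLN3, a prolyl hydroxylase that acts on the HIF1A protein, was a small peak (3.76 ± 0.326, 6.30 ± 0.554 and 4.39 ± 0.691 CPM, curvature 0.64, SE 0.109, edgeR adjusted p = 7.59e-04). Glucocorticoid response genes had 3 of 15 called higher and 7 lower, none of them a peak or dip, with 0 higher and 3 lower without the Jurkat 3 h library given CD3+CD28 and 1 and 4 without the one given CD3+CD28+TSP1.

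The remaining lists each had at most 2 peaks and at most 3 dips. Over all genes tested, 3.88% were peaks and 4.15% dips, and 12% were called higher and 12.7% lower. Cyclins of G1 and CDK inhibitors had 3 of 15 called higher and 7 lower, with CCND2, cyclin D2, as the peak and CCND3 and the inhibitors CDKN1B and CDKN2D as dips. Factors of mRNA decay had 2 of 22 called higher and 7 lower with 3 dips, BTG2, CNOT8 and ZFP36L2, and 12 were called lower without the JinB8 library that stood apart. Targets of p53 had 3 of 19 called higher and 7 lower, with ZMAT3 as the peak and BTG2, FAS and XPC as dips. TGF-beta and SMAD feedback genes had 5 of 17 called higher and 4 lower, with the ligand TGFB1 and the ubiquitin ligase SMURF2 as peaks and the inhibitor SMAD6 as the dip. Without the Jurkat 3 h library given CD3+CD28 this list had 2 higher and 3 lower, and TGFB1 was not called (0.44, edgeR adjusted p = 0.0804), and without the one given CD3+CD28+TSP1 it had 3 and 0, and SMAD6 was not called (−0.40, edgeR adjusted p = 0.052). Hypoxia genes had 3 of 16 called higher and 6 lower, or 3 lower without the 3 h library given CD3+CD28 or TSP1 alone. NFAT and calcineurin genes had 2 of 14 called in each direction, with PPP3CA, the catalytic subunit of calcineurin, as the peak and its regulator RCAN1 as the dip, and 1 was called higher without the 3 h library given CD3+CD28 or without any 1 of the 6 h libraries. BCL2 family genes had 2 of 16 called higher and 4 lower, NOTCH target genes 2 of 13 and 3, and heat shock chaperones 1 of 21 and 3. Leaving out 1 Jurkat library gave BCL2 genes 0 to 2 higher and 2 to 4 lower, NOTCH targets 1 to 2 and 1 to 5, and heat shock chaperones 0 to 1 and 1 to 4, with 8 of these lower without the JinB8 library that stood apart. Of the nuclear and quality-related RNAs, 1 of 9 was called, NEAT1 (curvature −0.55, edgeR adjusted p = 0.0422), and this call was lost under 15 alternatives, among them DESeq2 and leaving out any 1 of the Jurkat libraries (edgeR adjusted p = 0.063 to 0.165). Of these 9 RNAs, 1 had a curvature above 0, the median was −0.20, and 6 were called lower without the filter on low counts and 3 in a fit of Jurkat libraries alone. Their part in the 3 h values was not tested. Among markers of other cells, 2 myeloid genes, 3 erythroid or megakaryocyte genes and 9 fibroblast or epithelial genes were tested. None was called by edgeR in the main fit. DESeq2 called 1 erythroid or megakaryocyte gene lower. So did edgeR without the filter on low counts, without the Jurkat 1 h library given CD3+CD28 and without the 6 h library given CD3+CD28+TSP1. The 9 fibroblast or epithelial genes all had a curvature above 0, with a median of 0.67 and 1 gene called higher without the Jurkat 6 h library given TSP1 alone, with activated treatments only or without the filter on low counts, and both myeloid genes were above 0 with a median of 0.89. The summed level of the fibroblast and epithelial list was 4.81 to 8.93 CPM at 1 h, 7.96 to 9.41 CPM at 3 h and 3.82 to 5.94 CPM at 6 h, and that of the myeloid list was 0.995 to 1.35, 1.44 to 1.75 and 0.463 to 1.13 CPM. Their part in the 3 h values was not tested.

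**Figure D4:**
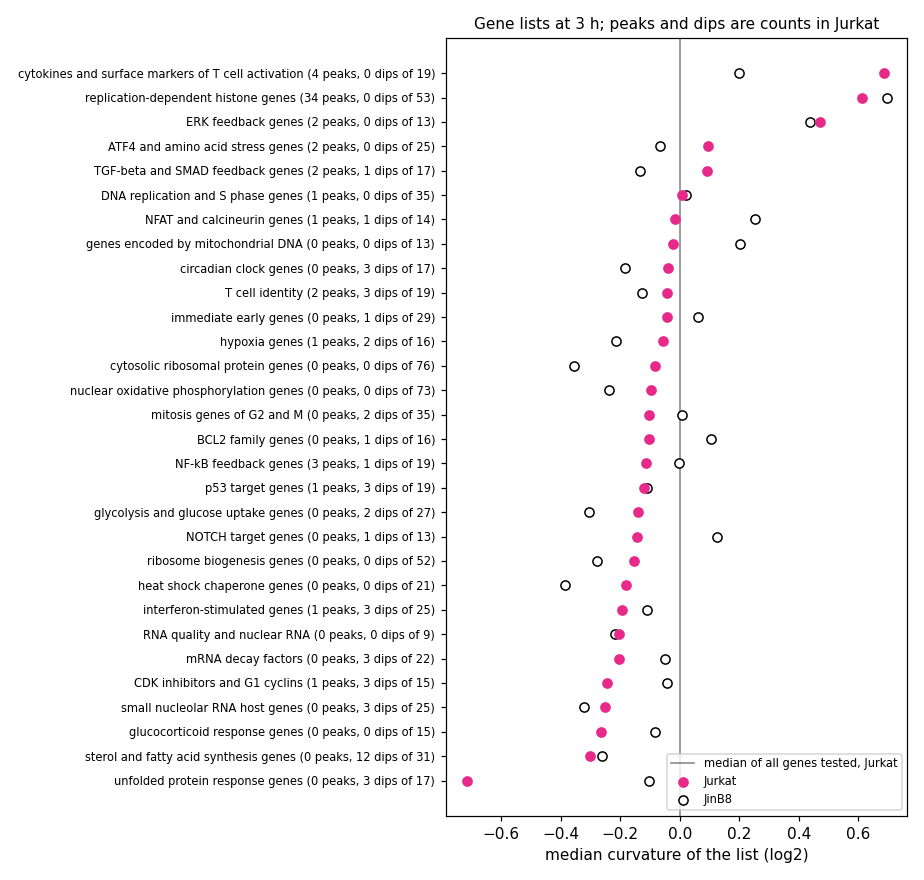
Median curvature (log2, x axis) of each gene list in Jurkat (filled) and JinB8 (open), with the number of Jurkat peaks and dips among the tested genes in the list's name and a vertical line at the median of all tested genes. Histone genes lie at 0.61 and 0.69 in the 2 lines, whereas unfolded protein response genes lie at −0.72 in Jurkat and −0.10 in JinB8.

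Peaks and dips differed in features that the calls did not use. Among annotated genes, 84.6% of peaks and 94.7% of dips were protein-coding, beside 73.8% of all tested genes, and 11.9%, 3.44% and 16.5% were long noncoding RNAs. Among coding genes, dips had more exons, with a median of 12 against 7 in peaks and 9 in all genes, and single-exon genes made up 6.69% of coding peaks, 0.279% of coding dips and 2.66% of all coding genes. Replication-dependent histone genes, which lack introns, were 34 of the peaks, beside 598 coding peaks in all. The shares of exon number without them were not computed. Zinc finger genes, taken as symbols that begin with ZNF, ZFP, ZSCAN, ZKSCAN or ZBTB and a number, were 40 of the peaks (5.64%), 13 of the dips (1.72%) and 556 of all genes (3.04%). Median span of coding genes was 35.0 kb in peaks, 53.3 kb in dips and 33.0 kb in all genes. The AU-rich letters TATTTAT, which occur in unstable mRNAs, stood in 39.9% of the 3′ untranslated regions of peaks, 40.1% of dips and 34.8% of all, but per kilobase the frequencies were 0.316, 0.318 and 0.320. Median expression also differed, with a log2 CPM of 3.68 in peaks, 5.15 in dips and 3.48 in all genes, and its part in these features was not tested.

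The 3 h state was then compared between the lines, which asks whether CD47-deficient cells pass through it too. JinB8 had 630 peaks (3.45%) and 552 dips (3.02%) of its own, with 2109 genes (11.5%) called higher and 2097 (11.5%) called lower for curvature, together 23.0%, and 36% at an unadjusted p under 0.05. The peaks of both lines shared 184 genes, 26.0% of the Jurkat peaks and 29.2% of the JinB8 peaks, and the dips shared 168, 22.2% and 30.4%. Of the Jurkat peaks, 654 of 709 had a curvature above 0 in JinB8, and 392 (55.3%) were called in the same direction and 2 in the opposite one. Of the dips, 684 of 758 were below 0, with 417 (55.0%) called lower and 7 higher. The departures were smaller in JinB8, where the medians over the same genes were 0.38 and −0.27, but the genes were chosen by their size in Jurkat. The difference between the lines, tested as an interaction, was called for 574 genes (3.14%, and 19.8% at an unadjusted p under 0.05), of which 361 (1.98%) had the higher and 213 (1.17%) the lower curvature in JinB8. Among them were 88 peaks and 161 dips of Jurkat. Without the JinB8 library that stood apart, 452 of 991 peaks (45.6%) and 594 of 1167 dips (50.9%) were called in the same direction in JinB8, and the difference was called for 130 and 253. The number of interaction calls moved strongly with single libraries. It was 66 higher and 35 lower without the Jurkat 3 h library given CD3+CD28+TSP1, 190 and 106 without the 3 h library given CD3+CD28, 135 and 83 without the 6 h library given CD3+CD28, 143 and 70 without the 6 h library given CD3+CD28+TSP1, 240 and 111 without the 1 h library given CD3+CD28+TSP1, and 181 and 121 without the 1 h library given TSP1 alone. It was 572 higher without the 1 h library given CD3+CD28.

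Peaks and dips were chosen by their size in Jurkat, which largely fixes the direction of a called difference, so the following values are a description. The 88 peaks with a called difference had the lower curvature in JinB8 and the 161 such dips the higher. STIM2, a calcium sensor of the endoplasmic reticulum (chr4:26857601-27025381), was at 36.4, 33.1 and 35.0 CPM in Jurkat at 1 h, at 108, 95.4 and 65.9 CPM at 3 h and at 42.2, 42.1 and 38.1 CPM at 6 h, while the 9 JinB8 libraries lay between 32.3 and 35.4 CPM. The curvature of STIM2 was 1.23 in Jurkat and 0.08 in JinB8, a difference of −1.15 (SE 0.128, edgeR adjusted p = 0.00144). SVIL, an actin-binding protein (chr10:29457338-29736959), was at 40.7, 40.5 and 29.7 CPM in Jurkat at 3 h and at 18.4 to 23.4 CPM at the other times, whereas the JinB8 libraries were at 25.7 to 31.1 CPM at all times (difference −0.85, SE 0.108, edgeR adjusted p = 0.00204). In both genes the JinB8 values at 3 h overlapped those at the other times. SHC4 at 3 h was at 5.26, 3.03 and 4.06 CPM in JinB8 (difference −2.03, SE 0.290, edgeR adjusted p = 0.00300), and SCG2 was at 22.1, 13.7 and 19.1 CPM (difference −1.69, SE 0.245, edgeR adjusted p = 0.00311). HRH1 was called in JinB8 as well (curvature 0.99, edgeR adjusted p = 1.91e-04), from higher levels of 3.38 to 3.87 CPM at 1 h to 9.15, 7.87 and 9.97 CPM at 3 h, and its difference was −1.78 (SE 0.199, edgeR adjusted p = 0.00144). Of the other leading peaks, IL21R (1.54 in JinB8, difference −0.44, SE 0.304, edgeR adjusted p = 0.454), PDCD1 (1.90, difference 0.10, SE 0.360, edgeR adjusted p = 0.913) and COL6A3 (1.87, difference 0.05, SE 0.307, edgeR adjusted p = 0.944) had no called difference. FASLG was called higher at 3 h in JinB8 too, at 1.28, 0.771 and 0.377 CPM (curvature 2.81, edgeR adjusted p = 0.00173).

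Histone genes were also higher at 3 h in JinB8, with 46 of 53 called higher, a median curvature of 0.69 and a called difference between the lines in 2. Over all genes tested, 11.5% were called higher and 11.5% lower in JinB8, and the difference was called for 3.14%. H2BC3 stood out by its level, since JinB8 had 0.285 to 0.879 CPM where Jurkat had 71.4 to 201 CPM. Its curvature was 0.97 in JinB8 (edgeR adjusted p = 0.00538) and 1.01 in Jurkat. The JinB8 levels are not far above 3 counts, which are 0.120 to 0.154 CPM in those libraries. Reads divided between histone genes could weigh on them, so the JinB8 curvature of this gene is uncertain. The sterol synthesis list had 15 of 31 called lower in JinB8, a median of −0.26 and a called difference in 3, among them SREBF1 with a curvature of −1.27 in Jurkat and −0.25 in JinB8 (edgeR adjusted p = 0.0166).

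The unfolded protein response list differed between the lines in 9 of 17 genes, where 3.14% of all genes tested did. In JinB8 4 of the 17 were called lower, where 11.5% of all genes were, and the median was −0.10. HSPA5 in JinB8 was at 298, 296 and 274 CPM at 1 h, 226, 298 and 231 CPM at 3 h and 242, 255 and 245 CPM at 6 h, so the 6 h rise of Jurkat had no counterpart (difference in curvature 1.15, SE 0.121, edgeR adjusted p = 0.00144). XBP1 was at 175, 163 and 159 CPM, then 128, 93.0 and 142 CPM, then 99.4, 98.7 and 102 CPM (difference 0.96, SE 0.129, edgeR adjusted p = 0.00240). HERPUD1 dipped less from a lower level, at 61.8, 58.4 and 60.5 CPM, then 45.0, 39.8 and 46.3 CPM, then 53, 57.9 and 56.0 CPM (difference 0.89, SE 0.0968, edgeR adjusted p = 0.00144). Some other dips with a called difference were lower at 6 h than at 3 h in JinB8. ARHGEF10, a guanine nucleotide exchange factor (chr8:1823926-1958641), was in Jurkat at 34.2 ± 2.85, 19.7 ± 4.50 and 44.9 ± 1.62 CPM, and in JinB8 at 14.3, 16.7 and 15.4 CPM at 1 h, 16, 11.6 and 15.7 CPM at 3 h and 7.5, 7.60 and 6.77 CPM at 6 h (difference 1.44, SE 0.166, edgeR adjusted p = 0.00148). NEURL1B, a ubiquitin ligase of the Notch pathway (chr5:172641263-172691540), was at 17.2 ± 1.15, 11.2 ± 0.704 and 17.5 ± 1.06 CPM in Jurkat and at 20.4, 21.7 and 21.3 CPM, then 15.4, 16.7 and 16 CPM, then 7.94, 8.38 and 7.82 CPM in JinB8 (difference 0.93, SE 0.105, edgeR adjusted p = 0.00144). ABCG1 was also lowest at 6 h, with 52.4 to 52.9 CPM at 1 h, 23.6, 25.3 and 27.3 CPM at 3 h and 18.3 to 19.3 CPM at 6 h in JinB8 (difference 1.15, SE 0.134, edgeR adjusted p = 0.00151). HK2 dipped and returned in JinB8, at 95.9, 97.9 and 97.6 CPM, then 45.6, 56.3 and 54.0 CPM, then 104, 105 and 113 CPM, with a smaller curvature than in Jurkat (difference 0.68, SE 0.0955, edgeR adjusted p = 0.00277).

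**Figure D5:**
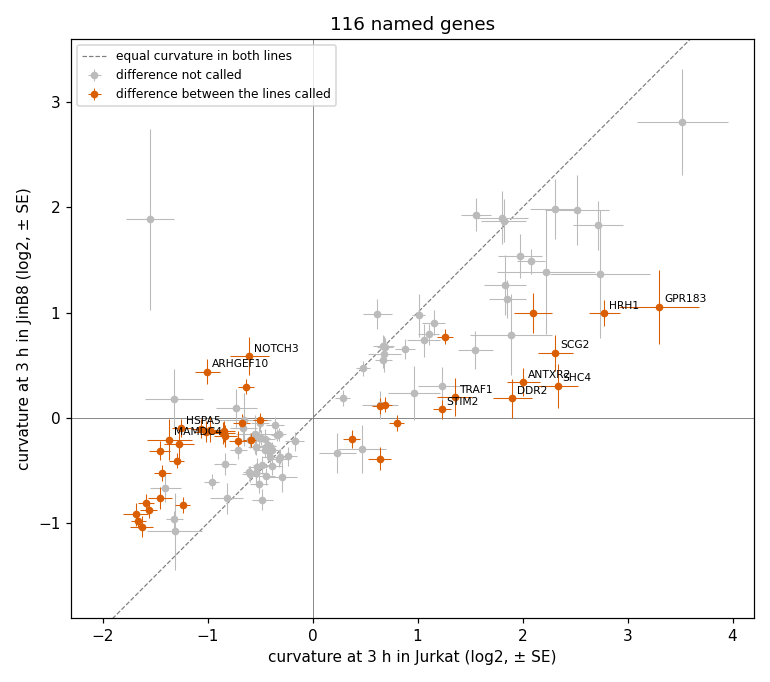
Curvature at 3 h in Jurkat (x axis) and JinB8 (y axis) for the 116 named genes, in log2 units with bars of 1 SE, and a dashed line for equal curvature. Orange points have a called difference between the lines, and STIM2 lies at 1.23 and 0.08 and HSPA5 at −1.25 and −0.10.

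Within Jurkat cells, the activated treatments (CD3+CD28 and CD3+CD28+TSP1) were compared with TSP1 alone, which asks whether the 3 h state needs the antibodies. Most departures had the same sign without them. Of the 709 peaks, 709 had a curvature above 0 in activated cells and 708 with TSP1 alone, and all 758 dips were below 0 in both, but these libraries also took part in the choice of the genes. The median was 0.75 in activated cells and 0.60 with TSP1 alone for peaks, and −0.56 and −0.47 for dips, and the curvature was larger in activated cells in 484 peaks and 527 dips. The difference was called for 0 genes by edgeR (0%), with 491 (2.69%) at an unadjusted p under 0.05, of which 60 were peaks and 32 dips, and a smallest adjusted p of 0.461. DESeq2 called 7 genes. With 4 residual degrees of freedom and a single library of TSP1 alone at each time, this test had little to rest on, and no untreated cells at 3 h were available to set TSP1 alone against. NR4A1, an orphan nuclear receptor induced by T cell receptor signals (chr12:52022832-52059507), had the largest such difference among the named genes. It was at 384, 476 and 205 CPM at 1 h, at 208, 206 and 27.1 CPM at 3 h and at 9.81, 17.2 and 6.34 CPM at 6 h, a curvature of 1.47 in activated cells and −0.41 with TSP1 alone (edgeR adjusted p = 0.461). In activated cells NR4A1 kept much of its level until 3 h, while with TSP1 alone most of it was gone by then. Its curvature of 0.97 over the 3 treatments (edgeR adjusted p = 0.0116) was not called without the 3 h library given CD3+CD28 (0.51, edgeR adjusted p = 0.203), without that given CD3+CD28+TSP1 (0.84, edgeR adjusted p = 0.106) or without the 6 h library given CD3+CD28 (0.79, edgeR adjusted p = 0.052), nor against a straight line in hours (0.46, edgeR adjusted p = 0.210). DUSP2, a phosphatase that inactivates ERK in the nucleus (chr2:96143169-96145440), was at 290, 307 and 90.8 CPM, then 248, 267 and 34.5 CPM, then 53.1, 74.3 and 32.3 CPM, with curvatures of 0.91 and −0.65 (edgeR adjusted p = 0.461). ARAP2, a regulator of ARF GTPases (chr4:35948221-36244514), peaked in both, at 99.6, 81.7 and 84.6 CPM, then 290, 263 and 132 CPM, then 64.3, 64.4 and 62.2 CPM, with curvatures of 1.86 and 0.87 (edgeR adjusted p = 0.664).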

How the data were processed

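RNA from Jurkat and JinB8 cells was sequenced once per condition after poly(A) mRNA library preparation. The authors deposited expected counts per gene from RSEM 1.3.3 with GENCODE version 36, after trimming by cutadapt 1.18 and alignment by STAR 2.4.2a to GRCh38. The strand setting is not given in the sources used here. A further 2 columns of the table match no sample of the series and were not used, nor was the isoform table. Expected counts were rounded, and genes were filtered with filterByExpr by line and time (minimum count 10, minimum total 15). With TMM factors, edgeR 4.0.16 (R 4.3.3) quasi-likelihood tests were run on 18 libraries, with 1 coefficient per line and treatment and time terms per line (8 residual degrees of freedom), and p-values were adjusted by Benjamini-Hochberg over 18263 genes at 0.05. Activated cells and TSP1 alone were compared in a model with 4 residual degrees of freedom. The procedure was tested on simulated data.

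Named genes were the 12 coding and 3 other peaks and dips with the largest curvature among genes uniform in 3 treatments whose mean log2 CPM was 1 or more, up to 3 members of each gene list with the smallest p, 3 genes per direction with the smallest p for a difference between lines and for activated cells against TSP1 alone, and CD47. FASLG, IL2RA, GPR183, CRTAM, TNFSF14, NFKBIZ and INSIG1 were added after their values were seen, and some genes are not reported here. The members, lists and tests were chosen with earlier results of these data known. p-values measure the spread between these libraries, which may be technical, and totals of 16107921 to 31737616 counts bound the precision by counting error only. Alternatives were DESeq2 1.42.0, limma 3.58.1 voom with quantile normalization, other factors and filters, other sets of libraries, straight lines in hours or log hours, and each Jurkat library left out. Leaving out the JinB8 3 h library given CD3+CD28+TSP1 was chosen after seeing the data. Replicate numbers stand for the treatments. The correlation of deviations between libraries of the same treatment ran from −0.05 to 0.15, and treatment stayed in the model as a coefficient.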

Additional observations from a re-analysis of the deposited data

Results flagged for a closer look

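Curvature differed between Jurkat and JinB8 by the interaction test in 41 of the 116 named genes, with edgeR adjusted p-values from 0.00144 to 0.0471. Over all genes tested, the difference was called for 3.14%. Most named genes were chosen by their curvature in Jurkat and some by the smallest p for this difference. The count and the directions therefore follow in part from the choice. Values are the curvature in JinB8 minus that in Jurkat on the log2 scale. Lower values in JinB8 were found for GPR183 −2.25, SHC4 −2.03, HRH1 −1.78, DDR2 −1.72, SCG2 −1.69, ANTXR2 −1.67 and TRAF1 −1.16. The same direction held for STIM2 −1.15, PHLDA1 −1.10, EGLN3 −1.03, SVIL −0.85, SLC3A2 −0.57, CD83 −0.56, LAT −0.53 and SLC7A11 −0.49.

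Higher values in JinB8 were found for ARHGEF10 1.44, NOTCH3 1.19, MAMDC4 1.16, HSPA5 1.15, ABCG1 1.15, SREBF1 1.02, XBP1 0.96, NEURL1B 0.93 and RORA 0.91. They were followed by HERPUD1 0.89, CCND3 0.88, ZFP36L2 0.86, MOCS1 0.79, AC119396.1 0.77, BCL11B 0.72, LINC00891 0.70, JAKMIP1 0.69 and RASGRP1 0.69. Smaller differences were those of HK2 0.68, BCL7A 0.66, XAF1 0.63, SELPLG 0.60, FAS 0.49, LEF1 0.48, SLC2A1 0.41 and ARNTL 0.38. The library of JinB8 given CD3+CD28+TSP1 for 3 h moved with some of these values. At 3 h in JinB8, NOTCH3, a Notch receptor, was at 60.7 CPM in it against 27.8 and 23.3 CPM in the other libraries, and its part in the NOTCH3 difference was not tested. Without that library the differences of ARHGEF10, HERPUD1, HRH1, NEURL1B, STIM2 and SVIL were still called by edgeR.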

How the results depend on the processing

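The median curvature of all genes stayed between −0.0074 and 0.034, but upper-quartile factors and voom with quantile normalization turned the balance of higher and lower calls. Of the 116 named genes, 110 were called, 94 of them under every alternative that tested them and 16 lost under at least 1, with 0 reversed. Most named genes were chosen by their curvature or its p in these same libraries. Such a choice favors calls that last, so these counts do not describe the genes at large. The filter of 1 CPM in every library did not test low genes such as HRH1, IL2RA, FASLG and GPR183. With activated treatments only, 1141 genes were called higher and 1147 lower for curvature, with 367 peaks and 394 dips, from fewer libraries, and in that setting 3 interferon-stimulated, 9 ribosome biogenesis and 4 small nucleolar RNA host genes were called lower. For the difference between the lines DESeq2 called 630 higher and 437 lower, no low-count filter 1081 and 538, and both voom with quantile normalization and a filter of 1 CPM called 326 lower. For activated cells against TSP1 alone DESeq2 called 7 higher, and no low-count filter 53 higher and 29 lower. The cause was not tested.

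With 1 library left out, curvature gave 1269 to 2884 genes higher and 1371 to 3313 lower, peaks 419 to 991 and dips 490 to 1167. The difference between lines gave 66 to 572 higher and 35 to 270 lower, and activated cells against TSP1 alone 0 to 0 higher and 0 to 1 lower, where leaving out a library of TSP1 alone was not run because the term cannot be estimated. JinB8 curvature without its 3 h library given CD3+CD28+TSP1 was called for 1651 genes higher and 1767 lower. Without the replicate block, that is with the treatment term left out, 2170 genes were higher and 2311 lower, with 709 peaks and 740 dips, and 302 and 180 for the difference between lines. Depth limits genes near 3 counts.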
